A study of Mus musculus with 9 samples.

Results

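Expression of 9 genes of gluconeogenesis and the insulin response was followed in mouse liver across diet and drug treatment. The set is a list of gene symbols and holds Pck1, G6pc, Fbp1, Pcx, Tat, Foxo1, Irs2, Igfbp1 and Insr, which are 9 of the 45513 gene models in the count table. All 9 passed the filter on low counts, which kept 12102 genes. The mice were C57BL/6, and liver RNA was sequenced at the end of 9 weeks. There were 3 groups of 3 libraries: vehicle on a normal diet, vehicle on a high fat diet (called high fat vehicle), and B-LGND2 on a high fat diet. The series title presents B-LGND2, a code name, as a ligand of estrogen receptor beta. No group carried a transgene or deletion in the labels. The sources used here do not give the age and sex of the mice, the dose and route of B-LGND2, the make-up of the diets, the hour of collection or whether the mice were fed or fasted. The labels number the libraries 1 to 3 within a group and do not name animals, so the p-values measure the spread between these libraries.

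In fasting, the liver makes glucose from lactate, glycerol and amino acids. Pyruvate carboxylase (Pcx), cytosolic phosphoenolpyruvate carboxykinase (Pck1), fructose-1,6-bisphosphatase (Fbp1) and the catalytic subunit of glucose-6-phosphatase (G6pc) carry the steps that bypass the irreversible reactions of glycolysis, and tyrosine aminotransferase (Tat) opens the breakdown of tyrosine. Glucagon acts through cAMP, and glucocorticoids through their nuclear receptor, to raise transcription of several of these genes, whereas insulin acts through its receptor (Insr) and the adaptor Irs2 to activate the kinase Akt, which keeps the transcription factor Foxo1 out of the nucleus. Igfbp1, a secreted binding protein of insulin-like growth factors, is a classical target that Foxo1 activates and insulin represses.

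Library totals ran from 5778978 to 10322972 counts, and no pair of libraries agreed within sampling noise (smallest chi-square per degree of freedom 13.2). Ribosomal RNA gene models took 0.901% to 1.44% of counts in the high fat vehicle libraries, 3.16% to 3.74% on normal diet and 4.31% to 6.19% with B-LGND2, with no overlap between groups. Normal diet replicate 1 stood apart with 12.7% of counts from mitochondrial genes, against 3.69% to 6.12% in the other libraries. For each library, the log2 level of each protein-coding gene was taken relative to that gene's mean over the 9 libraries. The Spearman rho of these relative levels with exon length was 0.306 to 0.349 in the high fat vehicle libraries. In the other 6 it was -0.458 to 0.206. The labelled tissue was checked against its markers: 9 hepatocyte genes summed to between 86851 and 133150 counts per 1e+06 (CPM) in every library, while 6 of 7 pancreas markers (Ins1, Ins2 and Gcg among them) and Kap, Slc12a1 and Nphs1 of the kidney had 0 counts. The remaining pancreas marker, the elastase Cela1, was present at 18.7 to 55.3 CPM, and the 5 kidney markers summed to at most 0.165 CPM. Summed markers of liver macrophages reached 1171 to 1503 CPM with B-LGND2, against 329 to 443 CPM under high fat vehicle and 352 to 600.4 CPM on normal diet. In bulk RNA, fewer cells of a type and less RNA per cell cannot be told apart.

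The 250 bases before the transcription start are shown for 5 of the genes, because Pck1, Tat and Foxo1 are the genes that passed the test between diets, and G6pc and Igfbp1 are, with Irs2, the genes whose libraries varied most within the normal diet and B-LGND2 groups. They come from RefSeq on GRCm38.p6, where 8 of the 9 genes had an entry, Pcx with 2 starts. Each is written 5′ to 3′ on the strand of the gene. Capitals mark matches, on either strand, to 4 strings of letters: TGACG, the core of the cAMP response element, TGTTT, the core that forkhead factors such as Foxo1 bind, TGTTCT, a core of the glucocorticoid response element, and CACGTG, an E-box.
Pck1, chr2:173152823-173153072, plus strand: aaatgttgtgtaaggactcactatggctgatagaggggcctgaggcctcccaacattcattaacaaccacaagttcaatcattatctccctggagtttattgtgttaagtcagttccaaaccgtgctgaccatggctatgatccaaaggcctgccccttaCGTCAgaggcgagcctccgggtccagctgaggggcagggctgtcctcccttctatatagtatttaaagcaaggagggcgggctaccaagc
Tat, chr8:109990186-109990435, plus strand: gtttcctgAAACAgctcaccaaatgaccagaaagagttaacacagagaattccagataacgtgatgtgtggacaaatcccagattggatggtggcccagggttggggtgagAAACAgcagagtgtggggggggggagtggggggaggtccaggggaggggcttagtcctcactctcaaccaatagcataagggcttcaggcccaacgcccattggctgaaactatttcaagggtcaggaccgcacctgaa
Foxo1, chr3:52268087-52268336, plus strand: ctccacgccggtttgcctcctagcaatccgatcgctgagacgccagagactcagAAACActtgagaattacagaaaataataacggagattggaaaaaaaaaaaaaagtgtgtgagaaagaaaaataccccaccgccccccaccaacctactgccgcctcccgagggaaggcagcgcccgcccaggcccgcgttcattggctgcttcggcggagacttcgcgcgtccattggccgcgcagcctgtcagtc
G6pc, chr11:101367466-101367715, plus strand: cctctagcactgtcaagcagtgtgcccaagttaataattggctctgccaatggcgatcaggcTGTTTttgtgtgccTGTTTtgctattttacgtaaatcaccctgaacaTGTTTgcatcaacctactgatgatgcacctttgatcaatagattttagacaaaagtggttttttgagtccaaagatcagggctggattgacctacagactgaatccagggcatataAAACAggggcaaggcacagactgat
Igfbp1, chr11:7197537-7197786, plus strand: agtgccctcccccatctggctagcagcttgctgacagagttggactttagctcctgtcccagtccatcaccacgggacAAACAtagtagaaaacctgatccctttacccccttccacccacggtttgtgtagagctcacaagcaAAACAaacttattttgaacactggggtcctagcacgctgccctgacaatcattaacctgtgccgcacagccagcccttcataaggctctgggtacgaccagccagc
Pck1 held TGACG, as CGTCA on the printed strand, from 90 to 86 bases before the start, and 17.8% of the 32851 promoter windows of the same length in the table held it. TGTTT was found in 5 of the 9 windows of these genes (G6pc with 4 matches, Tat and Igfbp1 with 2 each, Foxo1 and Irs2 with 1 each), beside 46.4% of all windows. CACGTG lay in the windows of Irs2 and of the first Pcx start, beside 6.02% of all windows. None of the 9 windows held TGTTCT, which 16.1% of all windows held, and no match overlapped a match of another string. RefSeq starts can differ from those of the gene spans given below. The G6pc window reaches well past the start of its span, chr11:101367561, so some of its matches lie inside the span. A match is a description of the letters, and binding was not measured.

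The level of each gene in every library is given first, in CPM on library sizes scaled by the trimmed mean of M-values (TMM). Gene spans are on GRCm38.

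Pcx (chr19:4510472-4621752, plus strand, 25 exon blocks) makes oxaloacetate from pyruvate in the mitochondrion. It had 520, 506 and 646 CPM in normal diet replicates 1 to 3, 804, 995 and 713 CPM in the high fat vehicle libraries, and 749, 835 and 671 CPM with B-LGND2. Each library of both high fat groups lay above each normal diet library, and the high fat groups overlapped. Pck1 (chr2:173153048-173159273, plus strand, 8 exon blocks) turns oxaloacetate into phosphoenolpyruvate. Its level was 2958, 2255 and 1434 CPM on normal diet, 5105, 5336 and 4408 CPM under high fat vehicle, and 2824, 2998 and 3731 CPM with B-LGND2. The 3 high fat vehicle libraries were the highest, and the B-LGND2 group overlapped the normal diet group. Fbp1 (chr13:62864753-62888282, minus strand, 7 exon blocks) removes a phosphate from fructose-1,6-bisphosphate. Normal diet libraries had 815, 1207 and 1040.1 CPM of Fbp1, high fat vehicle libraries 1087, 1098 and 1113 CPM, and B-LGND2 libraries 1483, 1325 and 1318 CPM. All 3 B-LGND2 libraries lay above the other 6, and the vehicle groups overlapped.

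G6pc (chr11:101367561-101377903, plus strand, 5 exon blocks) releases free glucose from glucose-6-phosphate. It read 624, 216 and 169 CPM on normal diet, 291, 297 and 395 CPM under high fat vehicle, and 423, 1166 and 293 CPM with B-LGND2. A single high library in each of the normal diet and B-LGND2 groups set their means, and all 3 groups overlapped. Tat (chr8:109990437-109999803, plus strand, 12 exon blocks) stood at 1204, 1068 and 785 CPM on normal diet, 3507, 2815 and 1965 CPM under high fat vehicle, and 1519, 1959 and 1484 CPM with B-LGND2. The 3 groups did not overlap: normal diet was lowest and high fat vehicle highest, although high fat vehicle replicate 3 exceeded B-LGND2 replicate 2 only narrowly.

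Insr (chr8:3122061-3279617, minus strand, 23 exon blocks) had 177, 148 and 89.8 CPM on normal diet, 175, 163 and 137 CPM under high fat vehicle, and 112, 141 and 134 CPM with B-LGND2. All groups overlapped. Irs2 (chr8:10984681-11008458, minus strand, 2 exon blocks) passes the signal on from the receptor. It was low throughout, with 15.1, 5.13 and 1.52 CPM on normal diet (97, 31 and 11 counts), 17.0, 25.1 and 19.1 CPM under high fat vehicle (103, 167 and 137 counts), and 1.85, 9.71 and 6.83 CPM with B-LGND2 (16, 66 and 41 counts). The high fat vehicle libraries were the highest, and normal diet replicate 1 came close to them. Foxo1 (chr3:52268336-52353221, plus strand, 3 exon blocks) stood at 50.5, 55.1 and 41.8 CPM on normal diet, 98.5, 85.6 and 83.8 CPM under high fat vehicle, and 73.1, 59.2 and 68.6 CPM with B-LGND2. As for Tat, the 3 groups did not overlap and the B-LGND2 group lay between the others. Igfbp1 (chr11:7197782-7202546, plus strand, 4 exon blocks) read 44.8, 14.6 and 21.02 CPM on normal diet, 166, 51.0 and 49.3 CPM under high fat vehicle, and 7.88, 57.7 and 7.99 CPM with B-LGND2. B-LGND2 replicate 2 stood far above the other libraries of its group, and so did high fat vehicle replicate 1 in its own. Foxo1 shares 674 exon bases with the antisense gene Gm20402, which had 0 counts in all 9 libraries, and Irs2 shares 162 with the opposite-strand transcript 9530052E02Rik, which had 2 counts in all. The strand setting of the counting is not stated in the sources used here, so reads of these overlaps cannot be told apart.

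**Figure D1:**
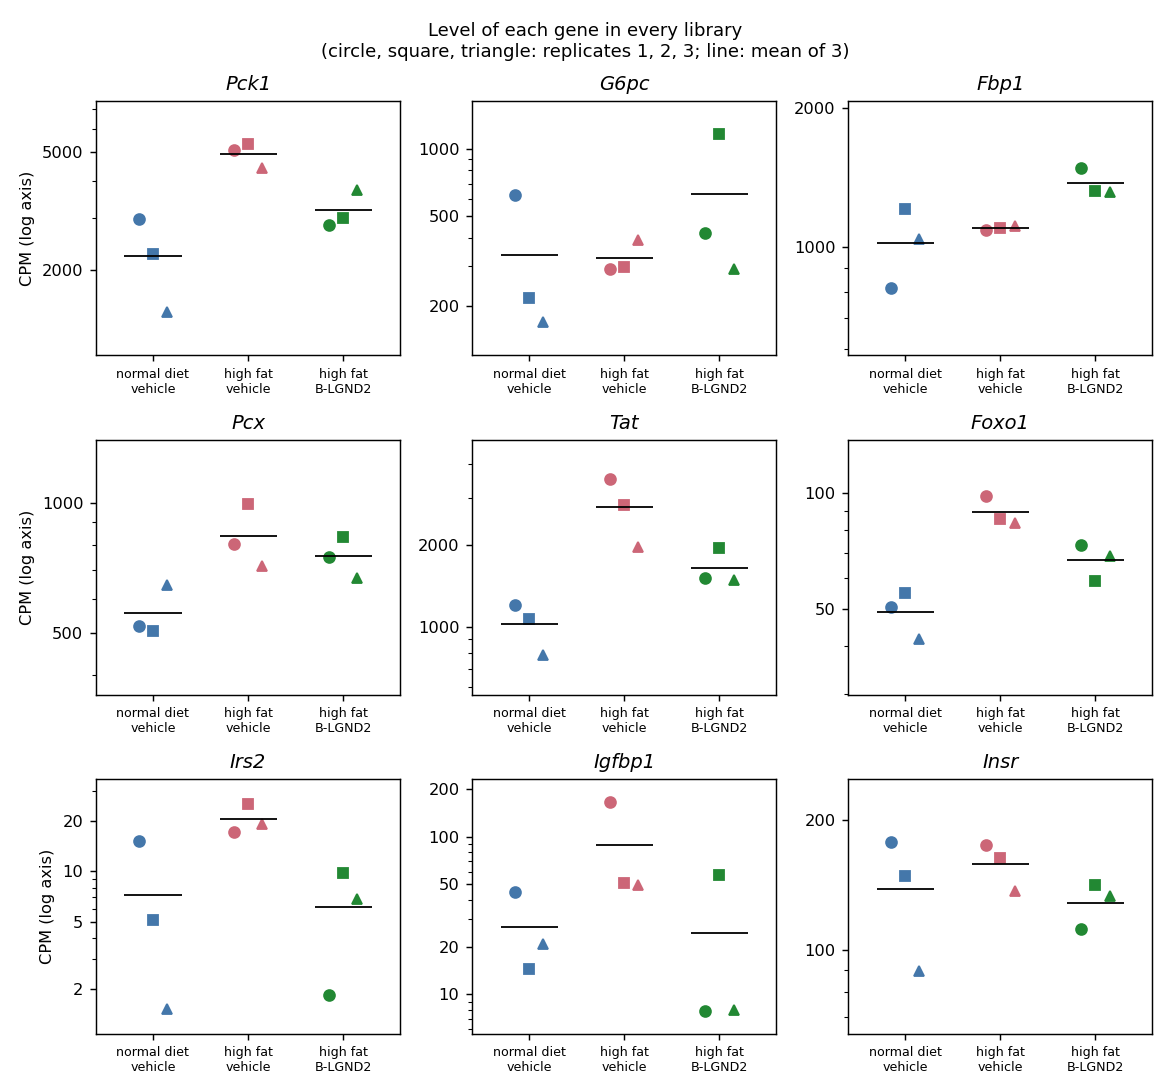
Level of each of the 9 genes in every library, in CPM on a log axis (each panel has its own range), by group; circles, squares and triangles are replicates 1, 2 and 3 and the line is the mean of 3. Pck1, Tat, Foxo1 and Irs2 were highest in the high fat vehicle libraries, while G6pc had a single high library on normal diet (624 CPM) and with B-LGND2 (1166 CPM).

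Levels of different genes were compared per kilobase of exon. By its mean, Pck1 came first in every group, at 646 ± 222 CPM per kb on normal diet, 1444 ± 141 under high fat vehicle and 929 ± 140 with B-LGND2 (SD, n = 3 each). Its libraries overlapped those of the next gene in each group: Fbp1 on normal diet and with B-LGND2, and Tat under high fat vehicle. Irs2 came last, at 1.15 ± 1.11, 3.23 ± 0.667 and 0.970 ± 0.629 CPM per kb. Fbp1 and then Tat followed on normal diet (599.7 ± 116 and 424 ± 88.8 CPM per kb) and with B-LGND2 (808 ± 54.8 and 688 ± 110), and their libraries overlapped in both. Under high fat vehicle the order of this pair was the other way round, with Tat at 1149 ± 321 and Fbp1 at 646 ± 7.46 CPM per kb and no overlap. G6pc and Pcx followed, with overlapping libraries in all 3 groups (139 ± 104 and 117 ± 16.2 CPM per kb on normal diet). Igfbp1, Insr and Foxo1 held the next places in that order in all groups. Libraries of Insr and Foxo1 were apart on normal diet (10.1 ± 3.25 and 5.67 ± 0.780 CPM per kb) and overlapped in both high fat groups.

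The first comparison asked what the high fat diet changed under vehicle. Pck1, Tat and Foxo1 rose: Pck1 went from 2216 ± 762 to 4949.9 ± 483 CPM, Tat from 1019 ± 214 to 2762 ± 772 CPM and Foxo1 from 49.1 ± 6.76 to 89.3 ± 8.01 CPM (mean ± SD, n = 3 each). The log2 fold change was 1.16 for Pck1 (SE 0.26, adjusted p = 0.0304), 1.44 for Tat (SE 0.26, adjusted p = 0.0134) and 0.86 for Foxo1 (SE 0.21, adjusted p = 0.0366), tested in edgeR by quasi-likelihood and adjusted over all genes after Benjamini and Hochberg. None of the 9 fell. Over all genes tested 2.99% passed, 1.5% higher and 1.49% lower on high fat diet. The median log2 fold change was 0.86 over the 9 genes and 0.0054 over all genes. With offsets for exon length and GC content these medians were 0.59 and 0.018. Without scaling beyond library totals the median over all genes was 0.17 and the calls over all genes were 260 higher and 98 lower, in place of 182 and 180, and the same 3 of the 9 genes passed.

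The remaining enzymes did not pass in the same edgeR test. The log2 fold change was 0.59 for Pcx (SE 0.21, adjusted p = 0.121), 0.11 for Fbp1 (SE 0.21, adjusted p = 0.797) and -0.04 for G6pc (SE 0.54, adjusted p = 0.975). A difference in G6pc, the last enzyme of the pathway, was not detectable at this spread. Irs2 and Igfbp1 had the largest fold changes of the set and did not pass either, at 1.498 (SE 0.63, adjusted p = 0.184) and 1.73 (SE 0.94, adjusted p = 0.332) in edgeR. Over left-out libraries Irs2 ranged from 1.00 to 2.64 and passed in 1 of 9 fits, without normal diet replicate 1 (2.64, edgeR adjusted p = 0.0126), and Igfbp1 ranged from 0.91, without high fat vehicle replicate 1, to 2.31 and passed in 0. Insr stood at 0.19 (SE 0.24, adjusted p = 0.673). For 6 of the 9 genes no library of either group reached into the range of the other group (Pck1, Pcx, Tat, Foxo1, Irs2 and Igfbp1), all higher on high fat diet, beside 30.1% of all genes in either direction.

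**Figure D2:**
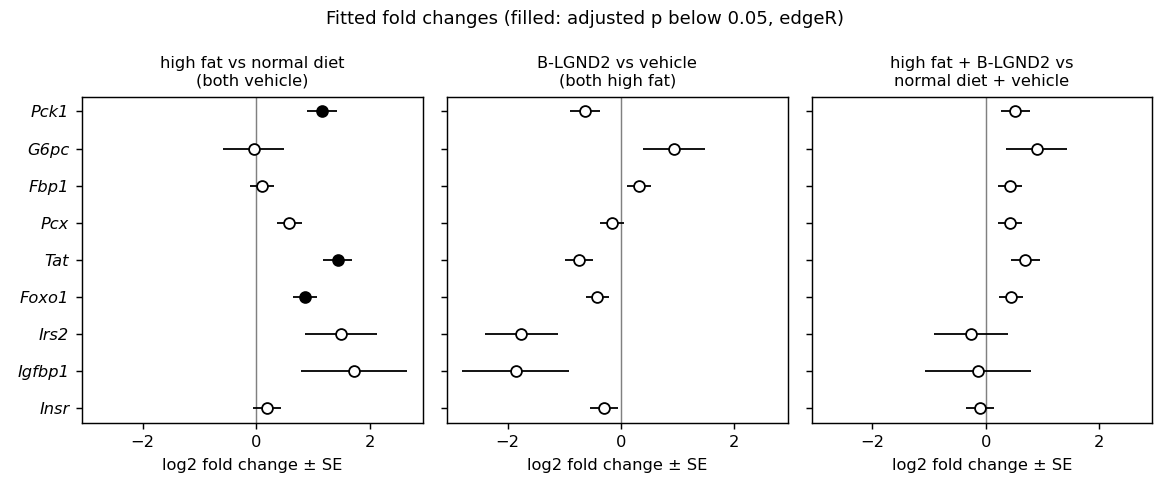
Fitted log2 fold change ± SE of the 9 genes in the 3 comparisons, from edgeR, with the SE derived from the F statistic. Filled circles have an adjusted p below 0.05. Tat (1.44), Pck1 (1.16) and Foxo1 (0.86) are the filled points, all for high fat against normal diet, and Igfbp1 and Irs2 have the widest bars.

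The call of Tat was the most stable of the 3 under other settings, lost with the rRNA share as a covariate (log2 fold change 1.86, edgeR adjusted p = 0.257) and without high fat vehicle replicate 1 (1.23, edgeR adjusted p = 0.0726). With that covariate none of the 9 genes and 1 gene in all passed in edgeR, and since the groups did not overlap in rRNA share, group and rRNA share cannot be told apart. The covariate gave log2 fold changes of 0.78 for Pck1 and 0.89 for Foxo1. Pck1 and Foxo1 missed the threshold without normal diet replicate 2 or 3 or any 1 high fat vehicle library, with edgeR adjusted p of 0.0789 to 0.117 for Pck1 and 0.0751 to 0.150 for Foxo1. Over all left-out libraries the fold change itself ran from 0.92 to 1.42 for Pck1 and from 0.76 to 0.95 for Foxo1. With offsets for exon length and GC content, Pck1 (1.19, edgeR adjusted p = 0.0216) and Tat (1.63, edgeR adjusted p = 0.00573) still passed. Foxo1 did not, at 0.59 (edgeR adjusted p = 0.0956).

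The second comparison asked what B-LGND2 changed on the high fat diet. None of the 9 genes passed by edgeR, 3 had an unadjusted p under 0.05 (Pck1, Tat and Irs2), DESeq2 called 1 (Tat) and limma-voom 1 (Igfbp1). Over all genes edgeR called 5.63%, 3.07% higher and 2.56% lower with B-LGND2, DESeq2 8.79% and limma-voom 5.09%. Unadjusted p this low were common, with Tat, Irs2 and Pck1 at ranks 1309, 1723 and 2101 of 12102 genes. Pck1 stood at 3184 ± 481 CPM with B-LGND2 against 4949.9 ± 483 CPM with vehicle, a log2 fold change of -0.64 (SE 0.26, edgeR adjusted p = 0.146), and Tat at 1654 ± 265 against 2762 ± 772 CPM (-0.74, SE 0.25, edgeR adjusted p = 0.0919). Irs2 was at 6.13 ± 3.97 against 20.4 ± 4.22 CPM (-1.75, SE 0.64, edgeR adjusted p = 0.117) and Foxo1 at 67.0 ± 7.12 against 89.3 ± 8.01 CPM (-0.41, SE 0.20, edgeR adjusted p = 0.231).

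Igfbp1 had a log2 fold change of -1.86 (SE 0.94, edgeR adjusted p = 0.282). Without B-LGND2 replicate 2, its high library, that became -3.46 (edgeR adjusted p = 0.0148), and without high fat vehicle replicate 1, the high library of the other group, it became -1.04 (edgeR adjusted p = 0.586). G6pc and Fbp1 were the 2 genes with values above 0, at 0.94 (SE 0.54, edgeR adjusted p = 0.315) and 0.32 (SE 0.21, edgeR adjusted p = 0.366). Without B-LGND2 replicate 2 the value of G6pc was 0.15. Pcx stood at -0.16 and Insr at -0.30, each with a spread that reached across groups. The groups did not overlap for Pck1, Tat, Foxo1 and Irs2, lower with B-LGND2, and for Fbp1, higher with it, which is 5 of 9 genes beside 33.6% of all genes. The median log2 fold change was -0.41 over the 9 genes and -0.0031 over all genes. With offsets for exon length and GC content these medians were -0.22 and 0.0072. Without scaling beyond library totals the median over all genes was -0.18 and the calls were 211 higher and 468 lower, in place of 371 and 310.

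Tat passed in edgeR without scaling beyond library totals (-0.89, adjusted p = 0.0447) and with no filter on low counts (-0.75, adjusted p = 0.0353), and Irs2 when only the high fat groups were fitted (-1.73, adjusted p = 0.0232) or without normal diet replicate 1 (-1.76, adjusted p = 0.0363). Markers of liver macrophages moved with the treatment: 12 of 12 had a higher fitted value with B-LGND2 and 10 rose in edgeR. Markers of endothelial cells (8 of 8 with a higher fitted value, 1 called) summed to 261 to 328 CPM with B-LGND2 against 177 to 220 CPM under high fat vehicle. Those of bile duct cells (3 of 3 tested with a higher fitted value, 1 called) summed to 52.2 to 65.3 against 29.9 to 35.5 CPM. The sums of each of these 3 marker lists did not overlap between the high fat groups. Lymphocyte marker sums were low and also higher with B-LGND2 without overlap (7.21 to 18.0 against 4.06 to 5.61 CPM). Adipocyte marker sums were lower with it without overlap (0.294 to 1.16 against 1.39 to 1.81 CPM). The part of these cell types in the values of the 9 genes was not tested.

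High fat diet with B-LGND2 was also set against normal diet with vehicle. None of the 9 genes passed by edgeR, 2 had an unadjusted p under 0.05 (Tat and Foxo1), and DESeq2 and limma-voom called 0. The edgeR test called 2.93% of all genes, 1.59% higher and 1.33% lower, DESeq2 4.94% and limma-voom 2.68%. By unadjusted p, Tat and Foxo1 stood at ranks 1143 and 2206 of 12102 genes. G6pc had the largest log2 fold change of the 9, 0.90 (SE 0.54, edgeR adjusted p = 0.387), which ran from 0.09 to 1.70 over left-out libraries and was 0.09 without B-LGND2 replicate 2. Tat had a log2 fold change of 0.70 (SE 0.25, edgeR adjusted p = 0.147), Foxo1 of 0.45 (SE 0.21, edgeR adjusted p = 0.244) and Pck1 of 0.52 (SE 0.26, edgeR adjusted p = 0.279). Fbp1 and Pcx each stood at 0.43 (SE 0.21, edgeR adjusted p = 0.272 and 0.279). Irs2 stood at -0.26 (SE 0.66), Igfbp1 at -0.13 (SE 0.93) and Insr at -0.10 (SE 0.24), so for each of them the error was larger than the value. Fbp1, Pcx, Tat and Foxo1 did not overlap between these groups, 4 of 9 genes and all higher with high fat diet and B-LGND2, beside 20.5% of all genes. The median log2 fold change was 0.43 over the 9 genes and -0.0058 over all genes. The 3 comparisons share libraries in pairs, so opposite signs in the diet and B-LGND2 comparisons are not independent of each other.

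G6pc and Pck1 are often read together as gluconeogenic genes, so their ratio per kilobase was taken within each library, where scaling between libraries drops out. G6pc amounted to 30.0%, 13.6% and 16.7% of Pck1 on normal diet, 8.08%, 7.90% and 12.7% under high fat vehicle, and 21.3%, 55.2% and 11.2% with B-LGND2. All high fat vehicle libraries lay below all normal diet libraries, and the B-LGND2 libraries overlapped both groups. A two-sided exact permutation test gave p = 0.1 for diet (9.57% ± 2.73 against 20.1% ± 8.69, SD, n = 3 each; adjusted over the 3 comparisons, 0.3), the smallest p that 3 against 3 libraries allow. For B-LGND2 against vehicle on high fat diet (29.2% ± 23.1) exact p was 0.2 (adjusted 0.3), and for B-LGND2 against normal diet exact p was 0.7 (adjusted 0.7).

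Within groups, the spread differed widely from gene to gene. The coefficient of variation of Fbp1 was 19.3% on normal diet, 1.15% under high fat vehicle and 6.78% with B-LGND2, and that of Foxo1 13.8%, 8.97% and 10.6%. Igfbp1 had 59.4%, 75.3% and 117%, Irs2 97.1%, 20.7% and 64.8%, and G6pc 74.4%, 17.9% and 75.1%. Some libraries carried several genes at once. Normal diet replicate 1 was the highest of its group for 6 of the 9 genes (Pck1, G6pc, Tat, Irs2, Igfbp1 and Insr), and it is the library with the high mitochondrial share. Normal diet replicate 3 was the lowest for 6 (Pck1, G6pc, Tat, Foxo1, Irs2 and Insr). It is the library whose levels relative to the 9-library means had the lowest correlation with exon length. B-LGND2 replicate 2 was the highest of its group for 6 genes (G6pc, Pcx, Tat, Irs2, Igfbp1 and Insr), and high fat vehicle replicate 3 the lowest for 6 (Pck1, Pcx, Tat, Foxo1, Igfbp1 and Insr). The part of RNA composition in these patterns was not tested.

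**Figure D3:**
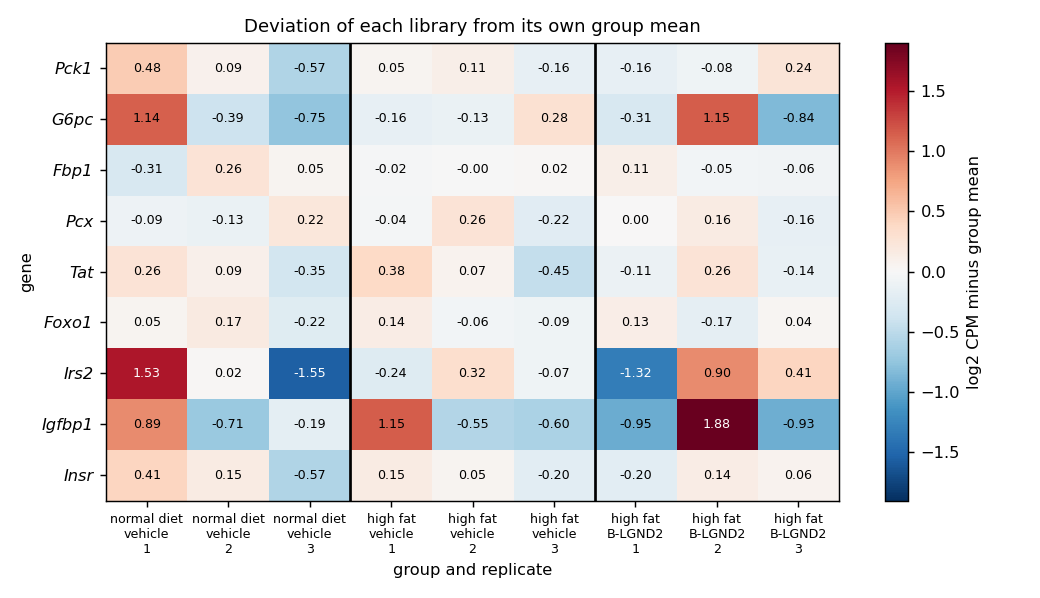
Deviation of each library from the mean of its own group, in log2 CPM, for the 9 genes (rows) and 9 libraries (columns); red is above and blue below the group mean. Irs2, Igfbp1 and G6pc have the strongest colours, with normal diet replicate 1 and B-LGND2 replicate 2 red for all 3, and Fbp1, Pcx and Foxo1 stay pale.

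Across the 9 libraries, the log2 CPM of Pck1 followed that of Tat (Pearson r = 0.913) and Foxo1 (r = 0.909), and that of Tat followed Foxo1 (r = 0.909). These values share the group differences, and of the deviations from group means r was 0.592, 0.542 and 0.410. The deviations of Pck1 were most like those of Insr (r = 0.923) and Irs2 (r = 0.826), and those of G6pc most like those of Igfbp1 (r = 0.726) and Irs2 (r = 0.696). Fbp1 differed in sign from most of the set, at -0.633 with Irs2 and -0.590 with G6pc. These correlations are over 9 libraries that share depth and composition, and they are given as a description.

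Protein-coding genes whose log2 CPM averaged 4 or more numbered 5292, and among them those most like Pck1 over the 9 libraries were Fam214a (r = 0.986), Eif4g1 (r = 0.985) and Ppara (r = 0.980), the last a nuclear receptor of fatty acids. Among the genes closest to Tat were Jun (r = 0.966), an immediate-early transcription factor, and Irf2 (r = 0.961). Foxo1 was most like Tnfrsf1b (r = 0.960), Vgll4 (r = 0.956) and Smcr8 (r = 0.951), and Igfbp1 most like Kmt5b (r = 0.929), Sfpq (r = 0.922) and Afdn (r = 0.905). These r were picked as the highest among 5292 genes over 9 libraries, and they share the group differences. Of the deviations from group means, r ran from 0.720 (Foxo1 with Tnfrsf1b) to 0.966 (Pck1 with Fam214a).

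The other genes of the pathway were taken from lists by role, whose counts of calls stand beside the shares over all genes, 2.99% for diet and 5.63% for B-LGND2 on high fat diet. In the same order DESeq2 called 9.49% and 8.79% of all genes, and limma-voom 2.56% and 5.09%. Unadjusted p under 0.05 in edgeR were common over all genes. For diet, Irs2 at 0.0337 ranked 2213 of 12102, and for B-LGND2, Pck1 at 0.0254 ranked 2101. Most calls in these lists were lost when some single library was left out. Of 9 genes called for diet, 0 were called in all 9 edgeR fits that each left out 1 library, and of 19 called for B-LGND2 on high fat diet 1 was (Esrrg). Of 11 called for B-LGND2 against normal diet 2 were (Cth and Socs3). The fold changes kept their sign in all those fits, at 71.0% to 134%, 70.1% to 142% and 79.6% to 128% of the value on the log2 scale given here. With the rRNA share as a covariate 0, 0 and 1 of these calls remained in edgeR. That covariate also reversed the sign of Me1 for diet (-1.87 to 0.057). For B-LGND2 on high fat diet it reversed Gapdh (-2.08 to 1.34), Klf9 (-1.05 to 0.020) and Ugp2 (-0.85 to 0.17). Of 22 tested genes of the other gluconeogenic steps and glucose output (24 listed), 0 passed between diets in edgeR, with 5 under an unadjusted p of 0.05, DESeq2 and limma-voom calling 1 each, and a median log2 fold change of 0.04. With B-LGND2 on high fat diet 1 rose and 2 fell (13.6% of those tested, median -0.09). Pck2, the mitochondrial counterpart of Pck1, rose from 2.6035 ± 0.481 to 6.95 ± 1.15 CPM (log2 fold change 1.41, SE 0.36, edgeR adjusted p = 0.0329), on 52 and 152 counts. Mdh1, the cytosolic malate dehydrogenase that supplies oxaloacetate to Pck1, fell from 232 ± 22.9 to 137 ± 22.2 CPM (-0.76, SE 0.20, edgeR adjusted p = 0.0386). Gapdh fell by 2.08 on the log2 scale (edgeR adjusted p = 0.022), but it had only 325 and 79 counts and many near-identical copies, so its value is uncertain. Slc37a4, which carries glucose-6-phosphate to G6pc, had 667 ± 64.2 CPM on normal diet, 664 ± 49.4 CPM under high fat vehicle and 893 ± 245 CPM with B-LGND2. Slc2a2, the glucose transporter of the hepatocyte membrane, had 327 ± 85.0, 458 ± 48.7 and 284 ± 14.3 CPM. It did not pass for B-LGND2 against vehicle (-0.69, SE 0.22, edgeR adjusted p = 0.0767), although its libraries did not overlap.

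Glucose uptake, glycolysis and glycogen genes run against or beside gluconeogenesis. Of 21 tested (22 listed), 2 rose on high fat diet (9.52%, median log2 fold change 0.37). They were Pfkfb3, which makes the activator of glycolysis fructose-2,6-bisphosphate (66.6 ± 31.1 against 21.8 ± 10.8 CPM; 1.61, SE 0.39, edgeR adjusted p = 0.037, with overlapping libraries), and Ppp1r3c, which brings protein phosphatase 1 to glycogen (84.7 ± 29.6 against 39.1 ± 12.2 CPM; 1.12, SE 0.28, edgeR adjusted p = 0.0407, kept in 1 of 9 leave-one-out fits). With B-LGND2, 3 fell (14.3%, median -0.34): Ppp1r3c to 33.5 ± 2.76 CPM (-1.34, SE 0.28, edgeR adjusted p = 0.0157), the liver glycogen synthase Gys2 from 173 ± 21.9 to 87.6 ± 15.3 CPM (-0.98, SE 0.26, edgeR adjusted p = 0.037) and Ugp2, which makes UDP-glucose for glycogen (-0.85, SE 0.24, edgeR adjusted p = 0.0489). Pklr, the liver pyruvate kinase, had 206 ± 96.8 CPM on normal diet, 390.2 ± 91.7 CPM under high fat vehicle and 308 ± 105 CPM with B-LGND2, and did not pass in either comparison (edgeR adjusted p = 0.134 and 0.573).

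Amino acid catabolism beside Tat held 20 tested genes. On high fat diet 1 fell and 0 rose (5% called, median -0.10; DESeq2 called 2 and limma-voom 0): Sdsl, a relative of serine dehydratase, from 11.9 ± 3.62 to 4.88 ± 0.708 CPM (-1.29, SE 0.33, edgeR adjusted p = 0.046, kept in 3 of 9 leave-one-out fits). With B-LGND2, 3 fell and 0 rose (15%, median -0.13). These were Oat, the ornithine aminotransferase (619 ± 201 to 278 ± 39.3 CPM; -1.16, SE 0.24, edgeR adjusted p = 0.0145), Cth, the cystathionine gamma-lyase (125 ± 35.9 to 58.8 ± 7.44 CPM; -1.08, SE 0.24, edgeR adjusted p = 0.0203), and Fah, the last enzyme of the tyrosine breakdown that Tat opens (222 ± 21.5 to 115 ± 14.4 CPM; -0.95, SE 0.22, edgeR adjusted p = 0.0246). Oat and Cth were also lower with B-LGND2 on high fat diet than on normal diet with vehicle, by -1.18 and -1.53 on the log2 scale (edgeR adjusted p = 0.0165 and 0.00364).

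Insulin signal transduction beside Insr, Irs2 and Foxo1 held 27 tested genes of 30 listed. On high fat diet 2 rose (7.41%, median 0.38): Foxo3, a paralogue of Foxo1, from 53.6 ± 15.9 to 115 ± 12.99 CPM (1.10, SE 0.24, edgeR adjusted p = 0.0253), and Socs3, a feedback inhibitor of cytokine and insulin signalling, from 13.7 ± 0.966 to 39.5 ± 10.8 CPM (1.53, SE 0.33, edgeR adjusted p = 0.0253). With B-LGND2, 1 fell (3.7%, median -0.09), again Foxo3, to 48.7 ± 2.56 CPM (-1.24, SE 0.24, edgeR adjusted p = 0.0103). The normal diet and B-LGND2 levels of Foxo3 are each set against the same 3 high fat vehicle libraries, so the rise and the fall are not independent. Socs3 stood at 70.5 ± 36.2 CPM with B-LGND2, above normal diet by 2.36 (SE 0.33, edgeR adjusted p = 0.00117). Irs1, the other main adaptor of the receptor, had 5.48 ± 3.05 CPM on normal diet, 9.91 ± 2.19 under high fat vehicle and 10.4 ± 2.80 with B-LGND2, and did not pass (edgeR adjusted p = 0.207 for diet and 0.93 for B-LGND2). Akt2, a form of the kinase Akt, had 38.4 ± 5.17, 37.5 ± 0.823 and 36.3 ± 9.31 CPM.

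Of 20 FoxO targets and insulin-repressed genes beside the set, 0 passed between diets in edgeR, with 7 under an unadjusted p of 0.05, 3 called by DESeq2, 0 by limma-voom and a median log2 fold change of 0.39. With B-LGND2, 1 rose and 1 fell (10%, median -0.30): Apoc3, an apolipoprotein that restrains triglyceride clearance, rose from 3016 ± 291 to 6814 ± 1873 CPM (1.18, SE 0.30, edgeR adjusted p = 0.0344), and the cyclin Ccng2 fell from 8.18 ± 1.63 to 2.54 ± 0.938 CPM (-1.70, SE 0.37, edgeR adjusted p = 0.0184). Cdkn1a, a cell cycle inhibitor, was higher with B-LGND2 than on normal diet (10.96 ± 6.21 against 1.80 ± 0.699 CPM; 2.59, SE 0.51, edgeR adjusted p = 0.0132). Among 13 tested insulin-induced genes (14 listed), the malic enzyme Me1 fell on high fat diet from 94.1 ± 40.7 to 25.8 ± 11.2 CPM (-1.87, SE 0.46, edgeR adjusted p = 0.0482), 7.69% of those tested. With B-LGND2, 1 of the 13 rose and 1 fell (15.4%, median 0.34). Mid1ip1, an activator of fatty acid synthesis, rose from 35.9 ± 6.01 to 83.6 ± 6.89 CPM (1.22, SE 0.23, edgeR adjusted p = 0.00874). The immediate-early factor Egr1 fell from 23.8 ± 13.4 to 4.08 ± 3.69 CPM (-2.49, SE 0.59, edgeR adjusted p = 0.0307). Srebf1, the insulin-driven regulator of lipogenesis, was higher with B-LGND2 than on normal diet (386 ± 50.4 against 186 ± 42.3 CPM, log2 fold change 1.06, SE 0.24, edgeR adjusted p = 0.0258). With offsets for exon length and GC content, edgeR called 0 insulin-induced genes for diet and 2 for B-LGND2 on high fat diet. It called 0 for B-LGND2 against normal diet, so the calls of Me1 and Srebf1 were lost.

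**Figure D4:**
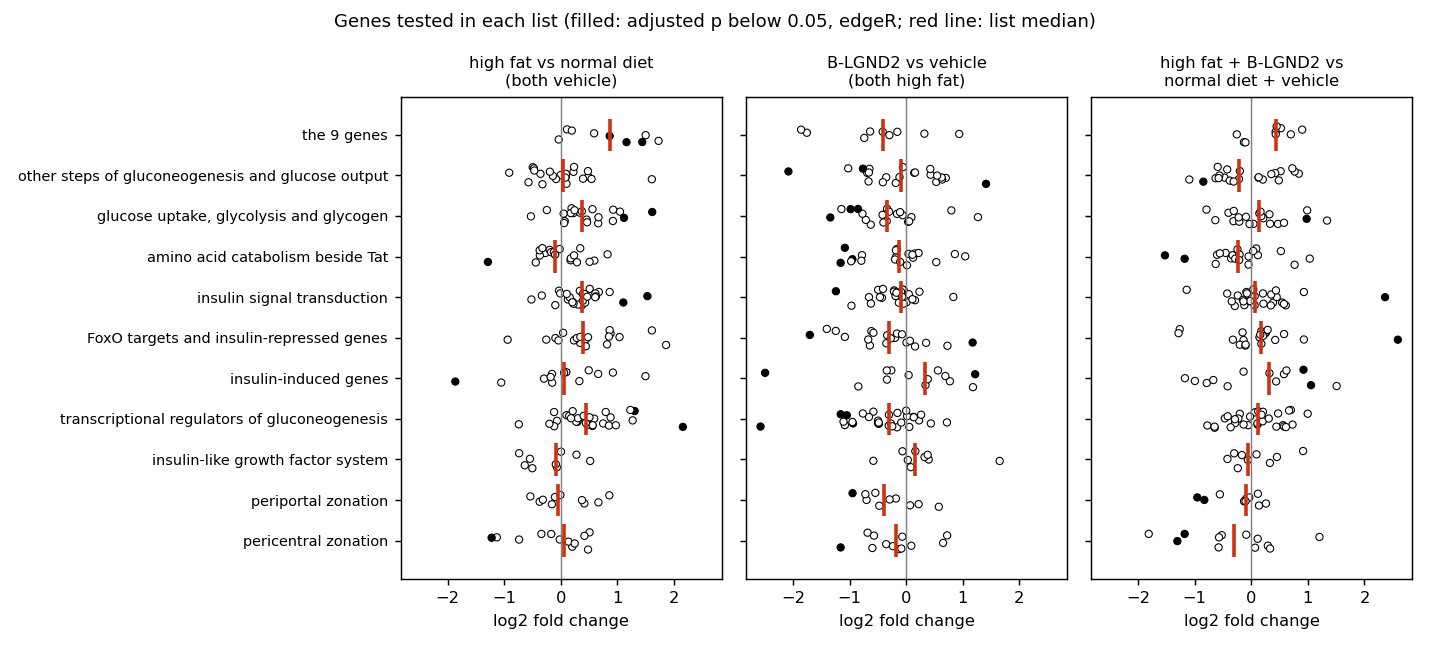
Log2 fold change of each tested gene in the lists by role, for the 3 comparisons; filled points have an adjusted p below 0.05 by edgeR and red lines are list medians. The 9 genes have a median of 0.86 for diet, -0.41 for B-LGND2 on high fat diet and 0.43 for B-LGND2 against normal diet, and the median of the other gluconeogenic steps is 0.04 for diet.

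All 30 listed transcriptional regulators of gluconeogenesis were tested. On high fat diet 2 rose (6.67%, median 0.45), among them the orphan receptor Esrrg, from 1.51 ± 0.719 to 6.72 ± 0.567 CPM (2.16, SE 0.43, edgeR adjusted p = 0.0206), on 29 and 134 counts. With B-LGND2, 4 fell and 0 rose (13.3%, median -0.31). They were Esrrg, to 1.11 ± 0.202 CPM (-2.57, SE 0.44, edgeR adjusted p = 0.00506), the glucocorticoid-responsive Klf9 (141 ± 19.3 to 68.2 ± 13.6 CPM; -1.05, SE 0.23, edgeR adjusted p = 0.0193), Yy1 (30.7 ± 2.38 to 13.8 ± 5.64 CPM; -1.16, SE 0.29, edgeR adjusted p = 0.0307) and Cebpb (148 ± 35.9 to 77.2 ± 21.9 CPM; -0.94, SE 0.25, edgeR adjusted p = 0.0401). Ppargc1a, the coactivator that fasting induces, was low at 3.94 ± 2.08, 7.22 ± 2.30 and 3.44 ± 0.983 CPM on normal diet, under high fat vehicle and with B-LGND2. It passed in neither comparison (0.88 and -1.08, edgeR adjusted p = 0.223 and 0.127). The glucocorticoid receptor Nr3c1 (84.5 ± 12.8, 97.6 ± 16.9 and 69.3 ± 10.27 CPM), the glucagon receptor Gcgr (218 ± 42.4, 189 ± 8.91 and 179 ± 31.2 CPM) and the corepressor Nr0b2 (51.7 ± 35.2, 86.9 ± 55.3 and 70.4 ± 23.3 CPM) did not pass either.

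The system that Igfbp1 belongs to held 9 other tested genes of 10 listed, and 0 passed in edgeR in any comparison. Under an unadjusted p of 0.05 were 2 for diet, 2 for B-LGND2 and 0 for B-LGND2 against normal diet, DESeq2 called 1, 0 and 0, and limma-voom called 0 in each. Igf1, the hormone itself, had 633 ± 116, 407 ± 5.31 and 537 ± 100.4 CPM, and its vehicle groups did not overlap (-0.64 on high fat diet, SE 0.22, edgeR adjusted p = 0.102). Igfbp2, another binding protein, had 618 ± 119, 423 ± 109 and 550.4 ± 100.4 CPM (-0.55 on high fat diet, SE 0.24, edgeR adjusted p = 0.191). Igfbp1 thus had the opposite sign to both in the diet comparison, and none of the 3 passed.

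Gluconeogenesis is a task of periportal hepatocytes. Of 10 periportal genes, 0 passed between diets in edgeR (3 under an unadjusted p of 0.05, 1 called by DESeq2 and 1 by limma-voom), and their summed level was 4517 to 6476 CPM on normal diet, 6588 to 7210.3 CPM under high fat vehicle and 4845 to 5374 CPM with B-LGND2. The higher sum under high fat vehicle came from abundant genes such as Cps1 (1491 ± 377 to 2362 ± 355 CPM) and Pigr (1209 ± 243 to 2188 ± 162 CPM), whereas 6 of the 10 had a fitted value below 0 and the median log2 fold change was -0.06. With B-LGND2 on high fat diet 1 fell (10%, median -0.38), Hsd17b13, a lipid droplet enzyme (144 ± 13.5 to 74.5 ± 18.7 CPM; -0.95, SE 0.22, edgeR adjusted p = 0.0246). Of 12 pericentral genes 1 fell on high fat diet (8.33%, median 0.06), the phosphatase Lhpp (123 ± 25.3 to 52.7 ± 7.78 CPM; -1.22, SE 0.25, edgeR adjusted p = 0.0207), and 1 with B-LGND2 (8.33%, median -0.18), Oat. The summed pericentral level was 12592 to 15062, 12995 to 16315 and 12136 to 14955 CPM in the 3 groups. The part of zonation in the values of the 9 genes was not tested.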

How the data were processed

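Poly(A)-enriched liver RNA was made into barcoded Ion Torrent libraries and sequenced on a Proton instrument, per the labels' protocols. The authors deposited 1 table of read counts, not normalized, with a row per gene and a column per library. The submitters' processing notes name HTSeq 0.6.1p1, TopHat2 2.0.13 with Bowtie2 2.2.4, DESeq2 1.6.3 and SAMtools 0.1.19, on build GRCm38.p3. The sources used here do not give the annotation release or the strand setting. Symbols, spans and exon lengths came from GENCODE M21 on GRCm38, and 44671 of 45513 gene IDs had a symbol.

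Genes were filtered with filterByExpr of edgeR 4.0.16 (minimum count 10; R 4.3.3), scaled by TMM and tested in 1 quasi-likelihood model over all 9 libraries (6 residual degrees of freedom, robust dispersions). There were 3 two-sided contrasts, with Benjamini-Hochberg adjustment over 12102 genes and a threshold of 0.05. Each SE is the absolute log2 fold change divided by the square root of the F statistic of its test. It is thus not independent of the p-value. CPM are counts per 1e+06 on scaled library sizes, and log2 CPM for correlations had a prior count of 2. The labels name no molecular identifiers, so counts are reads and not molecules. The 9 genes and the wider lists were chosen with earlier results of these data known. Named were the 9 genes, every called gene of a wider list (up to 4 per list and comparison), 13 further pathway genes whatever their values, and the 3 genes most like each of 4 members. A few of the genes these rules name are not reported here. In the wider lists 1 marker symbol had no gene ID. Alternatives were other scalings and filters, DESeq2 1.42.0, limma-voom (limma 3.58.1), plain dispersions, a fit of only the groups compared, a block for the replicate number, offsets for exon length and GC content, the rRNA share as a covariate, and each library left out. Same-numbered libraries did not clearly deviate together (r from -0.193 to 0.124). No pairing by number was seen, but 3 libraries a group cannot exclude one.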

Additional observations from a re-analysis of the deposited data

How the results depend on the processing

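Values here are counts of calls or log2 fold changes, and the cause of a change was not tested. For high fat against normal diet, genes called over the whole table moved from 362 to 1182 with no low-count filter, 973 with DESeq2, 203 with the replicate block, 234 with length and GC offsets and the block, 1 with the rRNA covariate and 153 with only the 2 groups. Of the 9 genes, 3 were called under most settings, 2 (Pck1 and Tat) with the replicate block or with offsets for length and GC, 1 (Tat) with only the 2 groups and 0 with the rRNA covariate. For B-LGND2 against vehicle, genes called moved from 681 to 1345 with no filter, 1084 with DESeq2, 2 with the rRNA covariate and 1420 with only the 2 groups. Of the 9 genes 1 was called, in place of 0, without scaling, with no filter, with DESeq2, with limma-voom and with only the 2 groups. For B-LGND2 against normal diet, genes called moved from 354 to 751 with no filter, 609 with DESeq2, 226 with offsets and block, 12 with the rRNA covariate and 144 with only the 2 groups, and the 9 genes gave 0 calls throughout. The replicate block changed the call of 1 of the 9 genes, Foxo1 (adjusted p = 0.0579 for diet).

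Leaving out each library in turn gave 0 to 4 of the 9 genes and 35 to 1860 genes called for diet, 0 to 1 and 100 to 1439 for B-LGND2, and 0 to 0 and 111 to 639 for B-LGND2 against normal diet. For diet, 0 of the 9 were called without high fat vehicle replicate 1, 1 (Tat) without high fat vehicle replicate 2 or 3 or normal diet replicate 2 or 3, and 4 (the 3 and Irs2) without normal diet replicate 1, where 1860 genes passed.

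Values near 0 changed sign, and the rRNA covariate also reversed larger ones. Among the latter was the called fall of Me1 with high fat diet, -1.87 in the main fit. Called falls with B-LGND2 on that diet were reversed too: Gapdh (-2.08), Klf9 (-1.05) and Ugp2 (-0.85). So were the uncalled B-LGND2 values of G6pc (0.94) and Pck1 (-0.64). For diet, G6pc (-0.04) became 0.12 without scaling, 0.19 with limma-voom, 0.14 with the replicate block, 0.11 with offsets, 0.36 with offsets and block and 0.99 with the rRNA covariate, and ranged from -0.36 to 0.76 over left-out libraries. Insr became -0.10 with offsets, with or without the block, and ranged from -0.042 to 0.41; Fbp1 ranged from -0.033 to 0.25. Slc37a4 (-0.0049) became 0.16 without scaling, 0.00088 with the stricter filter, 0.0089 with the block, 0.015 and 0.025 with offsets and offsets and block, and 0.46 with the rRNA covariate, and ranged from -0.067 to 0.071. Akt2 became 0.13 without scaling and 0.70 with the covariate, and ranged from -0.14 to 0.044. With the rRNA covariate the diet value was -0.41 for Nr0b2 and 0.057 for Me1. For B-LGND2 against vehicle, the covariate gave 0.10 for Pck1, -1.28 for G6pc, -0.10 for Fbp1, -0.50 for Slc37a4, 2.01 for Nr0b2, -0.11 for Irs1, -0.25 for Igfbp2, 1.34 for Gapdh, 0.17 for Ugp2 and 0.020 for Klf9; Irs1 was -0.086 without scaling and Igfbp2 -0.0068 with offsets. Left-out libraries gave -0.21 to 0.011 for Gcgr, -0.71 to 0.24 for Nr0b2, -0.12 to 0.28 for Irs1 and -0.19 to 0.14 for Akt2. For B-LGND2 against normal diet, the covariate gave -0.29 for G6pc and 0.31 for Irs2, and left-out libraries -0.78 to 0.88 for Irs2, -1.75 to 0.45 for Igfbp1 and -0.34 to 0.11 for Insr. The difference in G6pc as a percentage of Pck1 ran from -13.8 to -5.60 for diet, 6.65 to 28.7 for B-LGND2 and -3.89 to 18.2 for B-LGND2 against normal diet. For B-LGND2 against vehicle, Igfbp1 (-1.86) ranged from -3.46 without B-LGND2 replicate 2, where it was called (edgeR adjusted p = 0.0148), to -1.04 without high fat vehicle replicate 1. Depth limits Irs2 (11 to 167 counts a library), Esrrg and Pck2. It also limits other called genes, among them Ccng2 (13, 19 and 20 counts with B-LGND2) and Egr1 (71, 8 and 17 with B-LGND2). Cdkn1a had 7, 11 and 18 counts on normal diet, and Sdsl 32, 27 and 38 under high fat vehicle.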
